A study of Homo sapiens with 6 samples.

Results

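The 10 genes described here encode the enzymes that make and break down the polyamines, together with the proteins that control the first enzyme. They are ODC1, AMD1, SRM and SMS of synthesis, OAZ1, OAZ2 and AZIN1 of regulation, and SAT1, SMOX and PAOX of catabolism. They were chosen by gene symbol, as a pathway picked with earlier differences between the 2 groups of this experiment in view, and all 10 are found, once each, among the 32692 genes of the table. Their differences between the groups are therefore given as a description, with no p-value. RNA was measured in DU145, an established human prostate carcinoma line. The cells had been kept for 24 h with OTI-611 at 5 µM (3 libraries) or with its solvent DMSO alone (3 libraries). OTI-611 is known here by its code name, and the series title names the chromatin remodeller CHD1L as the target. All 6 libraries come from 1 line, and the labels do not say whether the libraries of a group came from separate cultures, so the spread between them may be technical.

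Polyamines are small positively charged molecules that bind RNA, DNA and membranes and are needed for growth. Putrescine is made from ornithine and is extended to spermidine and then to spermine with aminopropyl groups taken from decarboxylated S-adenosylmethionine. The way back starts with acetylation or with direct oxidation. The prostate is known for making large amounts of spermine and secreting it. The cells hold their polyamines within limits mostly through translation and protein turnover of the enzymes, which RNA levels do not show.

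The antizymes are the clearest case. Antizyme binds the ODC1 protein and sends it to the proteasome, and its messenger is read through a shift of reading frame at a stop codon, which polyamines promote. The sites of OAZ1 and OAZ2 are shown because this step, and not the amount of RNA alone, sets how much antizyme is made. The capitals mark the last codon of the first frame and the stop codon behind it.
OAZ1: cctcggtggtgcTCCTGAtgcccctcaccc
OAZ2: cctctgtggtgcTCCTGAtgcccctcaccc
Both are from GENCODE v29 transcripts on GRCh38 and lie in exons, that of OAZ1 on the plus strand at chr19:2271428-2271457 and that of OAZ2 on the minus strand at chr15:64691501-64691530. They share 29 of 30 bases, and the difference is G5T, counted from 1 at the 5′ end with the base of OAZ1 first. The table counts reads per gene and holds no measure of this shift.

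Values are RPKM, reads scaled to gene length and to library size, as the deposited numbers behave. A library pools many cells, so fewer cells with a transcript and less of it per cell cannot be told apart. In DMSO 1 no value has decimals, which was taken as RPKM with the decimals dropped, and differences are given with and without that library. On log2(RPKM + 1), 82.3% of the variance lay along a first component that parted DMSO from OTI-611, and 8.84% along a second on which DMSO 1 was far from the rest. Steps between low values gave estimated depths of 30.55 M and 32.3 M reads in DMSO 2 and DMSO 3 and of 37.2 M to 37.75 M reads in the 3 OTI-611 libraries. Among the 9 members that reached a mean of 1 RPKM, the fewest estimated reads in one of these libraries were 2158, for OAZ2, and the most were 32936, for SAT1. The epithelial markers were present in every library, KRT18 at 94.7 to 105 RPKM and EPCAM at 13.0 to 15.2 RPKM over all 6. KRT8 stood at 146 to 153 RPKM in DMSO and 103 to 109 RPKM in OTI-611, and CDH1 at 4 to 4.80 RPKM in DMSO and 1.45 to 1.71 RPKM in OTI-611. Of other cell types, the blood markers PTPRC and CD14 summed to 0 to 0.593 RPKM in DMSO and 0.0321 to 0.0487 RPKM in OTI-611, and the fibroblast markers COL1A1 and COL3A1 to 0 to 0.735 RPKM and 0.163 to 0.190 RPKM. The endothelial markers PECAM1 and VWF summed to at most 0.0278 RPKM in any library. CD3E was not found by its symbol among the genes read, so it has no value here. The part of these marker levels in the results was not tested.

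Synthesis genes went different ways. ODC1, ornithine decarboxylase, makes putrescine and is the first enzyme of the pathway. It stood at 130, 135 and 132 RPKM in DMSO 1, 2 and 3 and at 215, 233 and 244 RPKM in OTI-611 1, 2 and 3. All 3 treated libraries lay above all 3 solvent libraries, and the treated ones differed more among themselves (a coefficient of variation of 6.35% against 1.95%). The mean was 1.74-fold higher with OTI-611, and the difference on the log2(RPKM + 1) scale, which is the scale of every log2 difference given here, was 0.79 ± 0.042 (SE, n = 3 per group).

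AMD1, S-adenosylmethionine decarboxylase, supplies the aminopropyl donor for both later steps. Its levels were 32, 32.6 and 32.5 RPKM in DMSO and 23.2, 21.9 and 20.7 RPKM in OTI-611. The groups did not overlap and the treated ones were lower, opposite to ODC1. The mean was 1.48-fold lower, a log2 difference of -0.54 ± 0.042 (SE, n = 3 per group). GENCODE v29 names 4 pseudogene loci after AMD1 and 2 after SRM, and how the authors placed reads that match such copies is not given in the sources used here.

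The aminopropyl transferases had smaller differences than ODC1 and AMD1. SRM, spermidine synthase, had 54, 59.8 and 59.5 RPKM in DMSO and 60.2, 59.6 and 60.0 RPKM in OTI-611. Its groups overlapped, and DMSO 1 alone was low. The log2 difference was 0.05 ± 0.039 (SE, n = 3 per group, 95% interval -0.034 to 0.14), and without DMSO 1 it was 0.0071 ± 0.027 (SE). SMS, spermine synthase, had 92, 97.0 and 96.1 RPKM in DMSO and 112, 115 and 111 RPKM in OTI-611. Every treated library was higher, by 18.8% in the mean (log2 difference 0.25 ± 0.028, SE, n = 3 per group).

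In the table of RefSeq windows from 250 bases before to 50 bases after a start site (GRCh38.p14), 7 of the 10 members had an entry, with 10 windows in all, and SMOX, PAOX and AZIN1 had none. Of the AMD1 windows, 2 begin at neighbouring bases and are nearly the same sequence. Each window was searched on both strands for the E-box CACGTG, to which MYC binds, the FOXO motif TGTTTAC, the cyclic AMP response element TGACGTCA, the ATF4-type element TGATGNAA and the TATA box TATAAA. E-boxes were found in ODC1 and SRM and a TATA box in OAZ1, and the other motifs in 0 of the 10 windows. Across all 35116 windows 7.26% held an E-box, 3.42% the FOXO motif, 1.85% the response element, 3.62% the ATF4-type element and 11.5% a TATA box. The windows with E-boxes are shown with that motif in capitals, since both genes code for synthesis enzymes while their levels behaved differently, and that of SAT1 is shown because its RNA stood furthest from the solvent level.
ODC1: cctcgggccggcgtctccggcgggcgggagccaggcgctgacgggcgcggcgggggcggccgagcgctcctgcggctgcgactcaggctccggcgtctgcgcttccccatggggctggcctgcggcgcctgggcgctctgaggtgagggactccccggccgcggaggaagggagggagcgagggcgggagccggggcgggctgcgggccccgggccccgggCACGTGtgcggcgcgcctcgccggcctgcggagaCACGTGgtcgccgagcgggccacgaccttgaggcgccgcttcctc
SRM: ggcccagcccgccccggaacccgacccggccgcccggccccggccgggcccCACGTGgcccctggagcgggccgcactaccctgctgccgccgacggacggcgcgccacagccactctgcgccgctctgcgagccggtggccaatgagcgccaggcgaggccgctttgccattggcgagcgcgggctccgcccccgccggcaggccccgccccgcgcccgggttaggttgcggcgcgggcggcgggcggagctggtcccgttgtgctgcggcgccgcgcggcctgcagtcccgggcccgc
SAT1: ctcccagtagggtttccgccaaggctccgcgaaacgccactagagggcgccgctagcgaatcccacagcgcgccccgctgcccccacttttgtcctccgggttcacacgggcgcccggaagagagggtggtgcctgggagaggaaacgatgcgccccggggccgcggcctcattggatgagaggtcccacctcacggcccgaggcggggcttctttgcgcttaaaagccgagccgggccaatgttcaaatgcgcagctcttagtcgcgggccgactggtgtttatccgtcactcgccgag
The ODC1 window lies on the minus strand at chr2:10447963-10448262 and belongs to the more downstream of its 2 listed starts. It holds 2 E-boxes, as do 0.664% of all windows, beginning 29 bases before the start and at base 6 behind it. The upstream ODC1 window holds none. The SRM window lies on the minus strand at chr1:11059969-11060268 with 1 E-box beginning 199 bases before the start, and the SAT1 window on the plus strand at chrX:23782923-23783222. The windows with E-boxes are rich in G and C (80.7% in ODC1 and 82.0% in SRM), and the shares over all windows are not matched for this. A match of letters is a description and shows no binding.

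Of the 3 regulators of ODC1 protein, OAZ2 and AZIN1 were lower with OTI-611 and OAZ1 slightly higher. OAZ1, the main antizyme, had the highest RPKM of the 10 genes in DMSO, at 183, 184 and 180 RPKM, and 202, 198 and 199 RPKM with OTI-611. The groups did not overlap, and the mean differed by 9.34% (log2 difference 0.13 ± 0.022, SE, n = 3 per group). After quantile normalization that log2 difference was 0.05 and no longer passed the threshold described below, so the direction of OAZ1 is the same but its call is not. OAZ2, a second antizyme, went the other way, from 12, 11.8 and 12.1 RPKM in DMSO to 8.04, 7.56 and 8.13 RPKM, 1.51-fold lower with no overlap (log2 difference -0.54 ± 0.044, SE, n = 3 per group).

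AZIN1, the antizyme inhibitor, resembles ODC1 but has no enzyme activity, and it binds antizyme and so spares ODC1. It had 58, 56.0 and 55.8 RPKM in DMSO and 47.2, 43.9 and 47.3 RPKM in OTI-611. All treated libraries were lower, 1.23-fold in the mean (log2 difference -0.29 ± 0.035, SE, n = 3 per group). Exons of AZIN1-AS1, on the other strand, cover 5.35% of the exon bases of AZIN1, and use of strand in the counting is not given in the sources used here.

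The catabolic genes included the largest difference among the 10 members. SAT1, spermidine/spermine N1-acetyltransferase, adds the acetyl group that marks polyamines for export or oxidation. It stood at 138, 126 and 144 RPKM in DMSO and at 337, 339 and 349 RPKM in OTI-611. The groups were far apart beside their spread, and the mean was 2.51-fold higher (2.53-fold against DMSO 2 and DMSO 3 alone). The log2 difference was 1.32 ± 0.044 (SE, n = 3 per group), and 98.7% of the 11978 genes tested had a smaller one in size. SAT1 messenger is known to be made in productive and unproductive spliced forms, which a value per gene does not separate.

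SMOX, spermine oxidase, turns spermine directly into spermidine and releases hydrogen peroxide. Its levels were 39, 38.0 and 41.3 RPKM in DMSO and 62.2, 66.6 and 67.8 RPKM in OTI-611. The treated libraries were again all higher, by 1.66-fold in the mean (log2 difference 0.72 ± 0.041, SE, n = 3 per group).

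PAOX, the peroxisomal oxidase that acts on acetylated polyamines, was barely detected. It was listed at 0 in DMSO 1, where anything under 1 would read 0, at 0.089 in DMSO 2 and 0.0337 in DMSO 3, and at 0.0146, 0.0146 and 0.0145 RPKM in OTI-611 1, 2 and 3. Scaled by the estimated depths, DMSO 2 and DMSO 3 stood at 4.99 and 2.00 times the value of OTI-611 1, and the other treated libraries at 0.997 and 1.01 times, as whole and very small numbers of reads would. Such numbers are too small to compare the groups. PAOX was below the mean of 1 RPKM set for testing and was not tested.

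**Figure D1:**
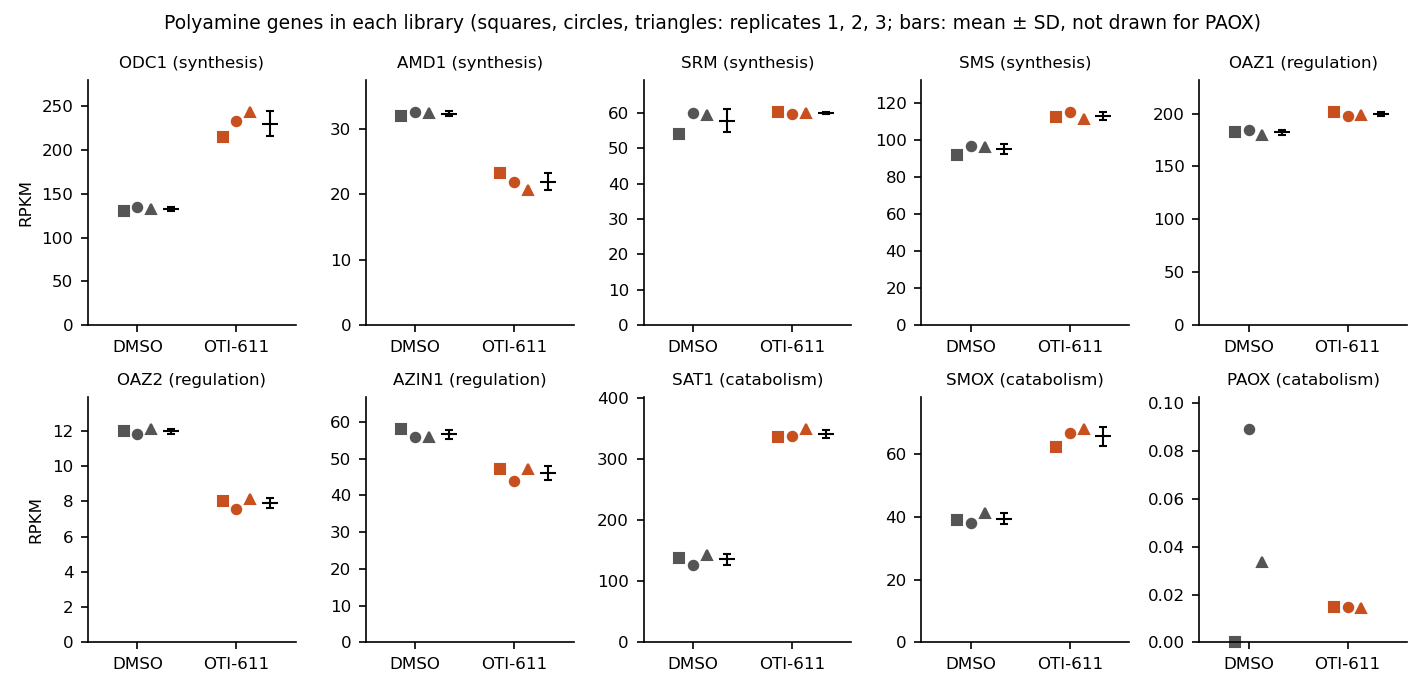
Level (RPKM, each axis from 0) of the 10 polyamine genes in each library, with DMSO in grey, OTI-611 in orange and bars for mean ± SD of 3 libraries (not drawn for PAOX). SAT1, ODC1 and SMOX lie higher in every treated library, AMD1, OAZ2 and AZIN1 lower, and SRM overlaps.

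Of the 10 members, 9 reached the mean of 1 RPKM and entered the limma fit across 11978 genes. At an adjusted p of 0.05 over all of them, 5 (SAT1, ODC1, SMOX, SMS and OAZ1) were called higher and 3 (AMD1, OAZ2 and AZIN1) lower, with SRM not called. The same fit called 65.2% of all genes tested, 27.8% higher and 37.3% lower, so a called gene is the usual case here, and since the contrast was known when the members were picked, nothing is read from their count. In the 8 called members the 3 treated libraries lay wholly on one side, which 70.2% of all genes did. Without DMSO 1, the same 8 members were called with the same directions, when 68.2% of all genes were. The median log2 difference was 0.13 over the 9 members and -0.05 over all genes tested, and the median size was 0.54 against 0.27. Because of the same choice, nothing is read from these medians or from the ranks by size below.

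By size, the members reached from the small to the extreme. The difference of SAT1 exceeded that of 98.7% of genes tested, ODC1 of 91.5%, SMOX of 89.0%, and OAZ2 and AMD1 of 79.8% each. AZIN1 (53.5%) and SMS (47.0%) were near the middle, and OAZ1 (26.5%) and SRM (11.6%) were small. Measured by RPKM in DMSO, which depends on the gene lengths used, the genes stood high. OAZ1, SAT1, ODC1 and SMS each stood above 95.4% or more of the genes tested, and OAZ2, the lowest of the 9, above 58.5%.

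**Figure D2:**
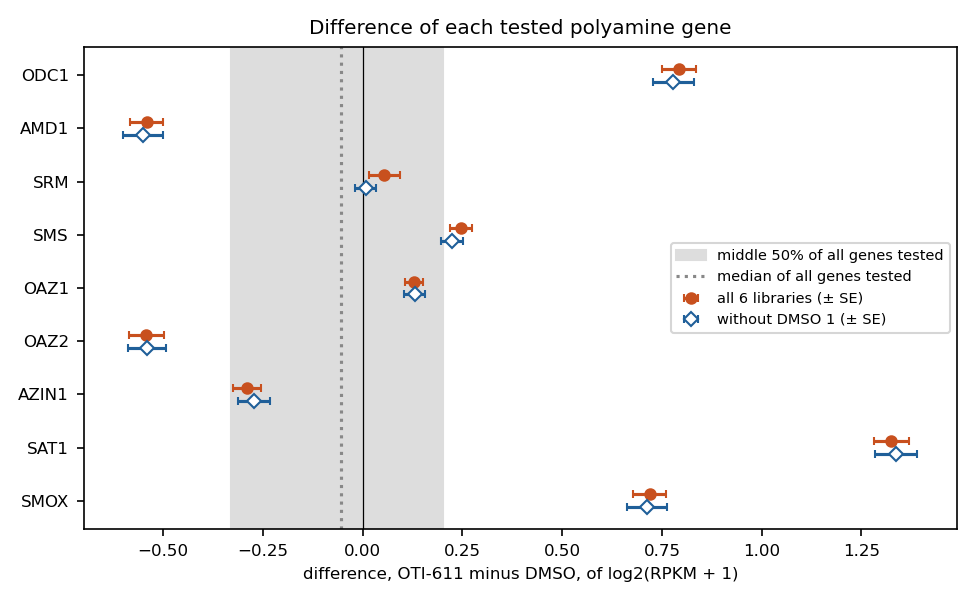
Difference between OTI-611 and DMSO on the log2(RPKM + 1) scale (± SE) for the 9 tested polyamine genes, from all 6 libraries (filled) and without DMSO 1 (open), over the middle 50% of all genes tested (grey) and their median of -0.05. ODC1, SMOX and SAT1 lie to the right of the grey band, SMS just past its edge, and AMD1 and OAZ2 to its left, with either set of libraries. The band and the median are from all 6 libraries in both cases.

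The order of the genes by RPKM changed between the groups. It depends on the gene lengths behind the values, which are not established. In DMSO the order ran OAZ1, SAT1, ODC1, SMS, SRM, AZIN1, SMOX, AMD1, OAZ2 and PAOX. There the libraries of SAT1 and ODC1 overlapped (136 ± 9.0 and 133 ± 2.6 RPKM, SD, n = 3), as did those of SRM and AZIN1. In OTI-611 it ran SAT1, ODC1, OAZ1, SMS, SMOX, SRM, AZIN1, AMD1, OAZ2 and PAOX, and no neighbours overlapped. In RPKM, SAT1 and ODC1 had moved above OAZ1, and SMOX above SRM and AZIN1.

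Ratios of RPKM taken within a library do not depend on how libraries are scaled to each other. They do depend on the gene lengths behind the values, which are not established, so only their change between the groups is read. ODC1 stood at 4.06, 4.14 and 4.07 times AMD1 in DMSO and at 9.24, 10.6 and 11.8 times in OTI-611. This pair, which supplies the 2 precursors of spermidine, moved furthest apart of the ratios formed, 2.58-fold. Not every pair of members was formed, SAT1 with AMD1 or OAZ2 among those left out, so this is no rank over all pairs. ODC1 was at 0.710, 0.734 and 0.736 times OAZ1 in DMSO and at 1.07, 1.18 and 1.23 times in OTI-611. The RPKM of the enzyme thus passed that of its antizyme, a crossing that depends on those gene lengths.

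Among the regulators, AZIN1 stood at 0.310 ± 0.0064 times OAZ1 in DMSO and at 0.231 ± 0.0084 times in OTI-611 (SD, n = 3 per group). OAZ1 stood at 15.2 ± 0.35 times OAZ2 in DMSO and 25.2 ± 0.87 times in OTI-611. The 2 aminopropyl transferases moved less, with SMS at 1.65 ± 0.049 times SRM and then 1.88 ± 0.040 times. SAT1 and ODC1 were level in RPKM in DMSO, at a ratio of 1.03 ± 0.082, and SAT1 stood at 1.48 ± 0.072 times ODC1 in OTI-611. In all of these ratios the 3 libraries of one group lay apart from the 3 of the other. The pairs were picked among genes chosen with this contrast known. The share of other gene pairs that lie apart was not computed, so nothing is read from this.

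**Figure D3:**
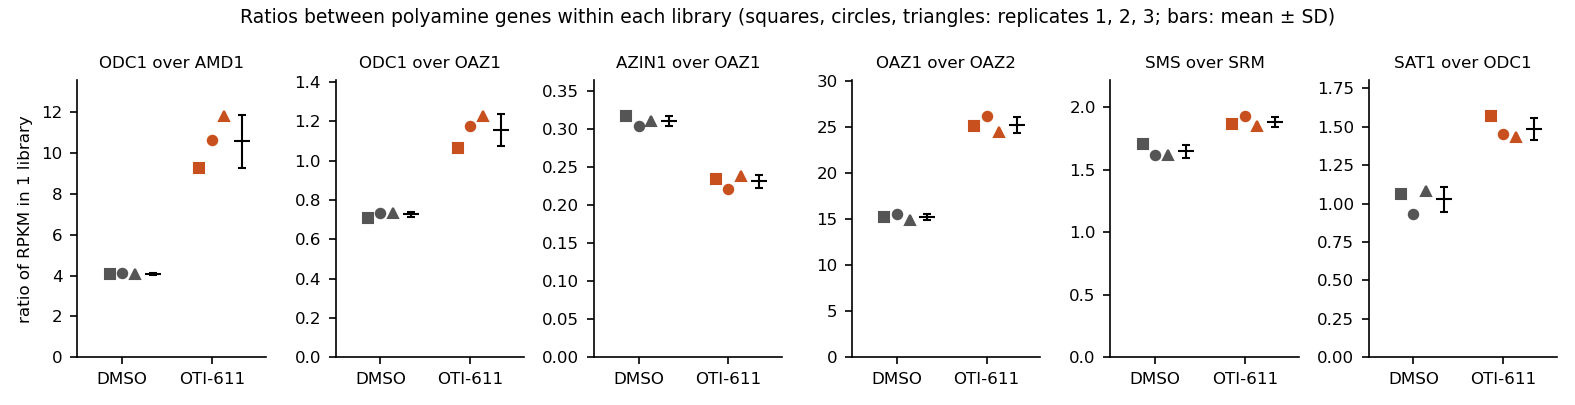
Ratio of the RPKM of 2 polyamine genes within each library (each axis from 0), with DMSO in grey, OTI-611 in orange and bars for mean ± SD of 3 libraries. ODC1 over AMD1 goes from about 4.09 to 10.55 and AZIN1 over OAZ1 goes down from 0.310 to 0.231. The groups do not overlap in any panel, but how often they do in other gene pairs was not computed.

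Around these 10 genes, 50 others of the wider pathway were listed by function, of which 48 were in the table and 35 reached a mean of 1 RPKM. Of the 35, 9 rose and 15 fell in limma (adjusted p under 0.05 over all genes tested), together 68.6%, which is near the 65.2% of all genes. All counts given below by list are small and stand beside 27.8% of all genes called higher and 37.3% called lower, and nothing particular to a list is read from them. The lists were made with earlier results of these data known. The p-values given below therefore describe single genes in the fit across all genes and are no independent support for the pathway. The median log2 difference of the 35 was -0.16 against -0.05 for all genes, but with only the 23 that averaged at least 5 RPKM it was -0.032 against -0.031. Without DMSO 1 that median was -0.27 against -0.09. Leaving out DMSO 1 gave 9 rises and 19 falls, when 68.2% of all genes were called, the 4 added falls being EIF5A2, DHPS, SLC18B1 and AZIN2.

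The methionine cycle, which makes S-adenosylmethionine for AMD1, held the largest fall of these lists. MAT2A, the methionine adenosyltransferase that makes it outside the liver, had 139, 134 and 140 RPKM in DMSO and 51.0, 47.0 and 44.4 RPKM in OTI-611. It fell 2.90-fold, with no overlap of the groups (log2 difference -1.52 ± 0.046, SE, limma adjusted p = 1.81e-08). Its regulatory subunit gene MAT2B rose slightly (0.13 ± 0.032, SE, limma adjusted p = 0.0058). AMD1 thus stood at 0.235 ± 0.0072 times MAT2A in DMSO and at 0.463 ± 0.0062 times in OTI-611, since both were lower but MAT2A by more. Exons of GGCX, on the other strand, cover 12.4% of the exon bases of MAT2A.

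Salvage of methylthioadenosine, the by-product of both aminopropyl transfers, went both ways. MTAP, the phosphorylase that starts it, had 11.6 ± 0.41 RPKM in DMSO and 11.3 ± 0.22 in OTI-611 (SD, n = 3 per group; limma adjusted p = 0.53). MRI1 (log2 difference -0.51) and ADI1 (-0.13) fell and ENOPH1 (0.13) rose, while APIP stood at 0.0088. Exons of other genes, C19orf53 on the same strand among them, cover 34.5% of the exon bases of MRI1. GOT1, an aminotransferase that can act at the last step and has wider roles, rose, with 72.7 ± 2.2 RPKM in DMSO and 168 ± 2.9 in OTI-611 (SD, n = 3 per group). On the log2 scale this came to 1.20 ± 0.029 (SE, limma adjusted p = 8.09e-09). Exons of AL391684.1, on the other strand, cover 19.3% of the exon bases of GOT1. AHCY (-0.03) and MTR (-0.01) did not pass. In all, this list had 10 tested genes, of which 3 rose and 3 fell, and its median log2 difference was -0.02. The call for ADI1 was lost under 7 of the 15 alternative settings.

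Ornithine supply held the largest rise of its list in ARG2, the mitochondrial arginase that makes ornithine. ARG2 had 1, 1.77 and 1.63 RPKM in DMSO and 6.41, 5.10 and 5.06 RPKM in OTI-611, with no overlap (log2 difference 1.41 ± 0.14, SE, limma adjusted p = 1.66e-05). The log2 difference was 1.27 ± 0.099 (SE) without DMSO 1 and ranged from 1.27 to 1.87 over all settings. Exons of VTI1B, on the other strand, cover 37.4% of the exon bases of ARG2, and reads from the 2 genes cannot be told apart if strand was not used. OAT, which links ornithine with glutamate semialdehyde, fell, with 49.1 ± 2.2 RPKM in DMSO and 34.8 ± 0.20 in OTI-611 (SD, n = 3 per group; log2 difference -0.49 ± 0.035, SE, limma adjusted p = 2.71e-06). ALDH18A1, which makes that semialdehyde (-0.39), the mitochondrial ornithine carrier SLC25A15 (-0.33), GATM (-0.45) and the urea cycle enzyme ASS1 (-0.57) also fell. The call for GATM was lost with all libraries cut to whole numbers (-0.67). The arginine transporter SLC7A1 (0.40) and glutamate dehydrogenase GLUD1 (0.33) rose. That makes 3 of 9 tested genes higher and 5 lower, with a median of -0.33, and ASL (0.06) did not pass.

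Genes tied to polyamine transport went both ways. SLC12A8 (log2 difference -0.89), the caveolin gene CAV1 (-0.78), the organic cation transporter SLC22A3 (-0.76), the glypican GPC1 (-0.66) and SLC47A1 (-0.34) fell, and CAV1 stood at 354 ± 5.3 RPKM in DMSO and 205 ± 8.7 in OTI-611 (SD, n = 3 per group). ATP13A3, a transporter that brings polyamines out of endosomes, rose, with 31.4 ± 0.74 RPKM in DMSO and 42.8 ± 2.1 in OTI-611 (SD, n = 3 per group; log2 difference 0.43 ± 0.039, SE, limma adjusted p = 9.71e-06). SLC3A2, whose product is part of amino acid transporters and has been linked to polyamine export, rose by 1.68 on the log2 scale. Its earlier result in these data was known when the list was made. In this list 2 of 9 tested genes rose, 5 fell and 2 (ATP13A2 at 0.0056 and SLC18B1 at -0.17) did not pass, with a median of -0.34.

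The known protein that spermidine modifies is eIF5A, on which DHPS and DOHH build hypusine. EIF5A had 24.95 ± 1.7 RPKM in DMSO and 20.0 ± 0.92 in OTI-611, a fall (SD, n = 3 per group; log2 difference -0.30 ± 0.053, SE, limma adjusted p = 7.48e-04), and EIF5AL1, a near-identical copy whose reads could be shared with it, by 0.38 on the log2 scale. EIF5A2 (-0.27), DHPS (-0.18) and DOHH (0.14) did not pass, which makes 2 of 5 lower and 0 higher, with a median of -0.27. Without DMSO 1, EIF5A2 (limma adjusted p = 0.016) and DHPS (0.018) passed too. In DHPS, 41.9% of exon bases also belong to another gene, WDR83 on the other strand among them.

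Of the relatives of the members, SAT2, a paralogue of SAT1, rose, with 14.7 ± 1.0 RPKM in DMSO and 23.9 ± 0.84 in OTI-611 (SD, n = 3 per group; log2 difference 0.67 ± 0.051, SE, limma adjusted p = 3.88e-06). AZIN2, a second antizyme inhibitor, had 1, 1.74 and 1.44 RPKM in DMSO and 1.04, 1.24 and 1.09 RPKM in OTI-611 (limma adjusted p = 0.35, and 0.032 without DMSO 1). OAZ3, SATL1 and AOC1 were under the mean of 1 RPKM.

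**Figure D4:**
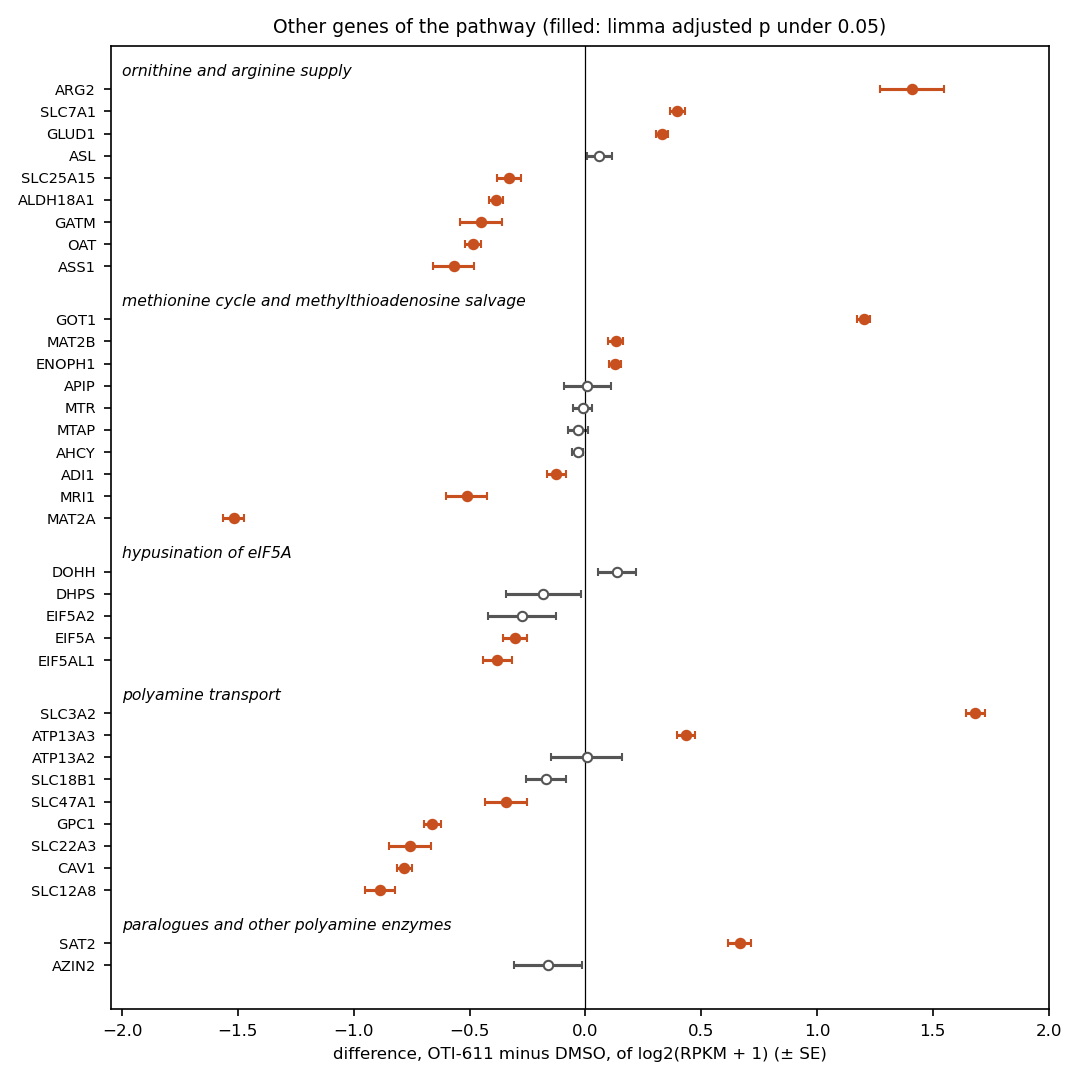
Difference between OTI-611 and DMSO on the log2(RPKM + 1) scale (± SE, 3 libraries per group) for the 35 tested genes of the wider polyamine pathway, by list, filled where the limma adjusted p over all genes was under 0.05. MAT2A lies furthest left at -1.52 and SLC3A2, listed with its earlier result known, furthest right at 1.68.

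In GENCODE v29 on GRCh38 the members are spread over the genome, so that the ones that are alike in direction are not neighbours, except that SMS (X, 21940573 to 21994835) and SAT1 (X, 23783173 to 23786226) are on one chromosome. ODC1 is on chromosome 2 from 10439968 to 10448504, AMD1 on 6 from 110874770 to 110895713, SRM on 1 from 11054584 to 11060024 and SMOX on 20 from 4120980 to 4187747. OAZ1 is on chromosome 19 from 2269509 to 2273490, OAZ2 on 15 from 64687573 to 64703281, AZIN1 on 8 from 102826357 to 102893864 and PAOX on 10 from 133379234 to 133391694. Overlap with exons of another gene takes 6.87% of the exon bases of OAZ1, 7.22% of those of OAZ2 and 6.94% of those of PAOX, and 0% for the remaining members but AZIN1. The table's identifiers are ENSG00000115758 for ODC1, ENSG00000123505 for AMD1, ENSG00000116649 for SRM, ENSG00000102172 for SMS, ENSG00000104904 for OAZ1, ENSG00000180304 for OAZ2, ENSG00000155096 for AZIN1, ENSG00000130066 for SAT1, ENSG00000088826 for SMOX and ENSG00000148832 for PAOX.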

How the data were processed

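The authors deposited 1 table with 1 column per library and no named unit. The authors' values in 5 columns were taken as RPKM, since they have decimals and low values in steps set by gene length, although FPKM would look alike. The deposited column DMSO 1 holds whole numbers only and is treated as a score on the same scale. Tools listed in the submitters' processing notes are TopHat2 2.0.9 and Cufflinks 2.1.1, besides HTSeq, FastQC and CASAVA 1.7. The build listed is mm10, of the mouse, while all 32692 IDs are human Ensembl IDs. The build, annotation and filters behind the values are therefore not established, and 0 sample columns were left unused. Per the labels' protocols, RNA was amplified by the Geo-seq method before a transposase-based library step, and no molecular identifiers are named, so reads are not molecules.

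Genes whose 6 libraries averaged 1 RPKM or more were fitted on log2(RPKM + 1) in limma 3.58.1 (R 4.3.3). Group was the sole term, variances were moderated along a trend in level, and two-sided p-values had Benjamini-Hochberg adjustment over all 11978 genes tested, at a threshold of 0.05. The scale understates changes of low genes. The fit was tested on simulated data. Ratios named as fold are of mean RPKM. Depths were estimated from steps of up to 8 reads with GENCODE v29 exon lengths, where 73.7% to 76.3% of low values were whole within 0.05. The table held RPKM, so the count test named for the other case did not apply. The members and lists were chosen with earlier results of these data known. The naming rule took every member and, per list, the called genes with a log2 difference of 0.5 or more in size, or else the 2 with the smallest p. The other tested genes of the lists were named after their values were seen. Alternatives were other pseudocounts, filters and scalings, treatments of DMSO 1, a replicate block and leaving out each library. Some cell type markers are not reported here.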

Additional observations from a re-analysis of the deposited data

How the results depend on the processing

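The calls of the 10 members were the same under most of the 15 alternatives: 8 members were called except after quantile normalization (7, without OAZ1, at 0.05) and after shifting each library to a median log2 ratio of 0 (9, with SRM, at 0.11). None of the 9 tested members changed direction under any alternative. SAT1 ranged from 1.27 to 1.38, ODC1 from 0.75 to 0.85, SMOX from 0.69 to 0.78 and AMD1 from -0.58 to -0.49. Same-numbered libraries did not vary together (correlations of their deviations from the group means of 0.019, 0.00041 and -0.058). DMSO 1, which lacks decimals, enters all DMSO deviations, so these values cannot decide whether the samples were paired. With the replicate block 8 members, 24 wider genes and 7756 genes were called, against 7805 without it. Leaving out 1 library gave 7130 to 8263 called genes, 8 members in each case and 23 to 28 wider genes.
Among the wider genes 14 of 512 values changed sign, all in 5 genes that were not called. After the shift to a median log2 ratio of 0, AHCY stood at 0.023, MTAP at 0.024 and MTR at 0.044, and after quantile normalization MTR at 0.039. With DMSO 1 raised by 0.5, APIP stood at -0.065 and ATP13A2 at -0.040, and with all libraries cut to whole numbers ATP13A2 at -0.11. Leaving out 1 library gave -0.069 to 0.059 for APIP, -0.13 to 0.19 for ATP13A2 and -0.024 to 0.0023 for MTR. The median log2 difference of the 35 wider genes ranged from -0.27 without DMSO 1 to -0.032 among genes averaging at least 5 RPKM, and leaving out each other library gave -0.15 to -0.10. The cause was not tested.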
